A study of Mus musculus with 6 samples.

Results

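The genes described here are 35 genes of B cell identity and B cell receptor signalling, and the question is where p53 was bound near them in B cells and in the other cells of the mouse spleen. They were chosen by name for what they are known to do, with earlier results of these data known. Peaks of p53 were assigned to a gene when they overlapped its annotated gene body extended by 10 kb on both sides (mm9). All 35 were found among the 22238 protein-coding genes of the annotation, Syk under its older symbol Sykb. In 5 peak lists together, the windows of these genes held 32 and 250 distinct peaks in B cells before and after irradiation, 2 and 162 in non-B cells, and none in spleens without p53.

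The lists came from p53 chromatin immunoprecipitation and sequencing in C57/Bl6 mice. B cells were selected from Trp53+/+ spleens of 8-week-old animals with B220 MicroBeads, and the B220-depleted remainder was taken as non-B cells. Cells came from mice that were mock-treated or had received 7 Gy of whole-body ionizing radiation (IR) 4 h earlier, and whole spleens of irradiated Trp53-/- mice served as the control for the antibody. The labels give no age for the Trp53-/- mice. The chromatin of several animals was pooled for each library. Peak lists hold no expression values, so the B220 selection could not be checked against marker genes here. The study reports flow cytometry of both fractions and describes the non-B cells as enriched for T cells. Each group had 1 library, so that no spread between replicates can be given, no test was made, and compartment and library cannot be told apart. In mock-treated mice the list of B cells held 1413 peaks and that of non-B cells 712. After IR these numbers were 24507 and 21400, and 83 peaks were called in Trp53-/- spleens. Each peak carries a value, read here as −log10 of its p-value, which was not scaled between libraries and depends on depth. This reading was taken from the values alone, and it does not match the limit of 1e-08 stated for peak calling, since values under 8 occur in every list (from 4.5% of peaks in B cells IR to 31.6% in B cells mock). Values were therefore compared by percentile, the position of a peak within its own list, with 100 at the top. As a scale, the highest peak near Cdkn1a, the classical p53 target that blocks the cell cycle, had a value of 41.2 in B cells mock against 44.4 in non-B cells mock. After irradiation it was among the highest peaks of both lists, but its value was much higher in non-B cells than in B cells. Unscaled IR values therefore did not favour B cells at every gene.

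Damage to DNA stabilises the transcription factor p53, which binds a response element made of 2 adjacent 10-base decamers. The B cell receptor is an immunoglobulin that signals through Cd79a and Cd79b, whose tails recruit the kinase Syk; the adaptor Blnk, the kinase Btk and the phospholipase Plcg2 act below it. Pax5, Ebf1 and their partners keep up the B cell programme, and Ciita switches on the MHC class II genes with which B cells present antigen.

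Sequences that matched the response element were few, and those given here are the ones with at most 2 mismatches near the midpoint of a peak in the window of one of the 35 genes, together with one 3-mismatch match each at Blnk and Ciita. The Blnk element lay in the only element-bearing B cells IR peak that overlapped a mock B cell peak. The Ciita element lay in the highest peak of all 35 windows. Each is written as the mm9 plus strand with 5 bases of flank on each side, and the capitals mark the 20-base element.
Cd72, chr4:43467642-43467661, -152 bases from the start: cgctgAAGCTAGCCTGGACCTGTGTccagc
Ms4a1, chr19:11339307-11339326, intron: tcagcAGTCATGCTTGGACACGTCTcctgt
Fcer2a, chr8:3676433-3676452, downstream: caaacGAGCTAGCCCGCGCACGCCTgcgca
Bank1, chr3:135967632-135967651, intron: cacatGCACATGCACAAACATGCCCacact
Blnk, chr19:41044606-41044625, intron: tgcatGCACATGTCCACACATGCACctata
Syk, chr13:52732447-52732466, intron: cttttAAGCAAGCCTCAACATGTTTcgaaa
Pax5, chr4:44550930-44550949, intron: gcggtGGGCATGCTCAGGCAGGTATacatg
Pax5, chr4:44585469-44585488, intron: actctGAGCATGCCCAGTCTTGTCCgaaaa
Ebf1, chr11:44751313-44751332, intron: tccttGGACTTGTCAAGACTTGTCAgtggc
Ciita, chr16:10477763-10477782, -2464 bases from the start: cacagGGACTTGCCCAGCCATGCCTgtaga
Ciita, chr16:10517521-10517540, intron: agggtGAGCATGTATAGACATGAGCagcag
The elements of Syk, the one of Pax5 at chr4:44585469-44585488 and the upstream one of Ciita had 1 mismatch each. The Cd72 element was the nearest to a start of its own gene.

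In unirradiated mice, 20 of the 35 genes had a p53 peak within 10 kb in B cells (57.1%, exact 95% interval 39.4 to 73.7, which like all intervals here covers counting error only), against 4.47% of all protein-coding genes and 5.3% of those of like window length. In non-B cells mock, 2 of 35 had one, Pax5 and Cxcr5 (5.71%, against 2.28% of all genes). Thus 18 of 35 had a peak in the mock list of B cells and none in that of non-B cells, a pattern seen in 2.67% of all genes, and no gene showed the opposite, which 0.481% of all genes did. A promoter peak, defined from 5 kb before to 2 kb after any annotated start, was present for 10 genes in B cells mock (1.97% of all genes) and for none in non-B cells mock (0.953%). The mock counts depended on the length of the list. When the B cell list was reduced to its 712 highest peaks, the length of the non-B list, 9 genes had a peak (2.32% of all genes), and 8 had one in B cells only.

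The mock peaks stood near the middle of their list, with a median percentile of 42.8 and a median value of 8.95 (whole list 9.08). Of the 32 peaks, 31 lay below the top 20%, and their values ranged from 5.08 to 13.44, while the remaining peak, at Pax5, had a value of 37.36. A value under 8 was found for 10 of the 32, and for 31.6% of the whole list. The peaks were short, with a median width of 84.5 bp against 95.0 bp for the whole list. Nonetheless 30 of the 32 lay where a B cells IR peak was also called (93.8%, whole list 88.2%), and 27 overlapped a non-B cells IR peak (84.4%, whole list 86.8%). Of the 32, 1 overlapped a non-B cells mock peak, at Pax5 (3.12%, interval 0.0791 to 16.2), against 31.3% of the whole B cells mock list.

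**Figure D1:**
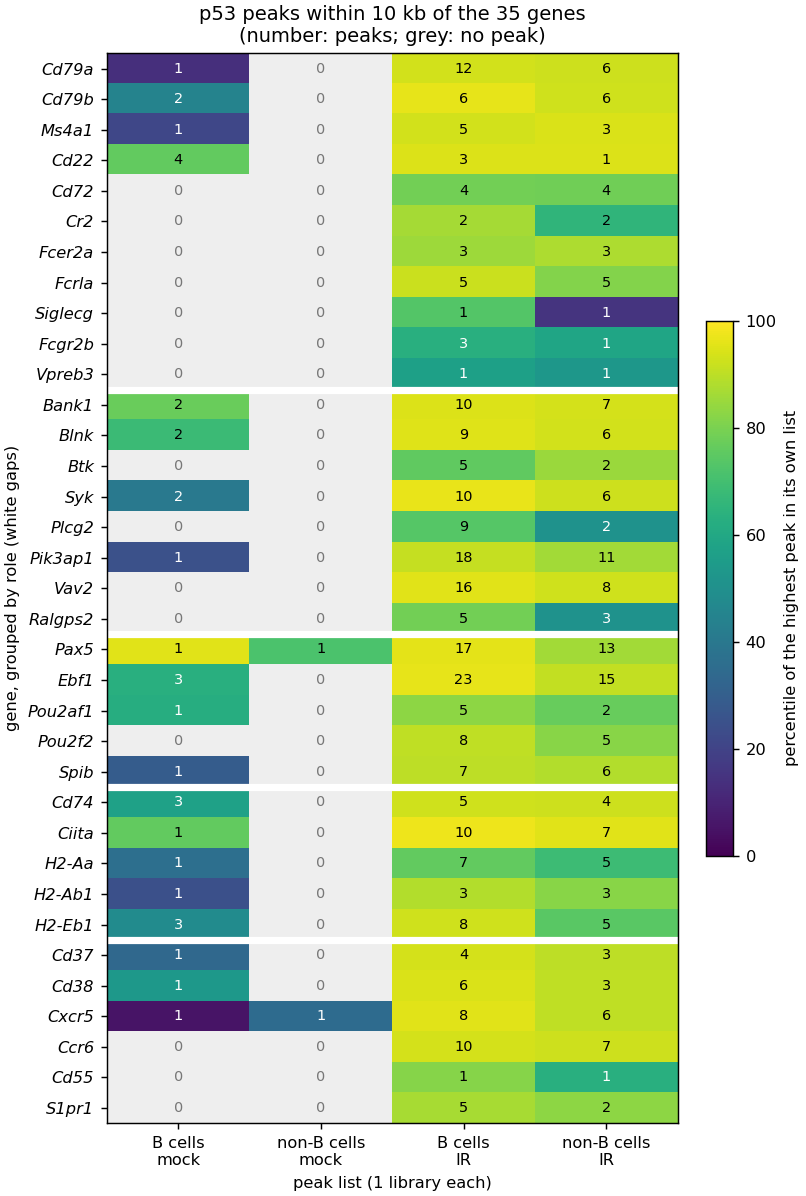
Number of p53 peaks within 10 kb of each of the 35 genes (numbers in the cells) and percentile of the highest of them in its own list (colour), for the 4 lists of Trp53+/+ cells with 1 library each; rows are genes grouped by role. In the mock lists 20 genes have a peak in B cells against 2 in non-B cells, whereas in the IR lists all 35 have one in both.

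After irradiation, all 35 genes had a peak within 10 kb in either compartment (35 of 35, interval from 90.0%), against 53.4% and 51.9% of all protein-coding genes. None had a peak in one IR list and none in the other, patterns that 4.09% of all genes showed for B cells only and 2.52% for non-B cells only. No peak was present in the Trp53-/- list, as for nearly all genes (0.126% had one). A promoter peak was called for all 35 genes in B cells IR (39.6% of all genes) and for 32 in non-B cells IR (38.5%). The 3 without one in non-B cells were Cd22, Plcg2 and Pik3ap1. A peak in the top 20% of its list was found for 27 genes in B cells IR (16.2% of all genes) and for 24 in non-B cells IR (16.3%), of which 23 were the same genes. Cr2, H2-Eb1, Pou2af1 and Cd55 reached the top 20% in B cells only, and Btk did so in non-B cells only. In the mock list of B cells only Pax5 reached it (0.886% of all genes).

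**Figure D2:**
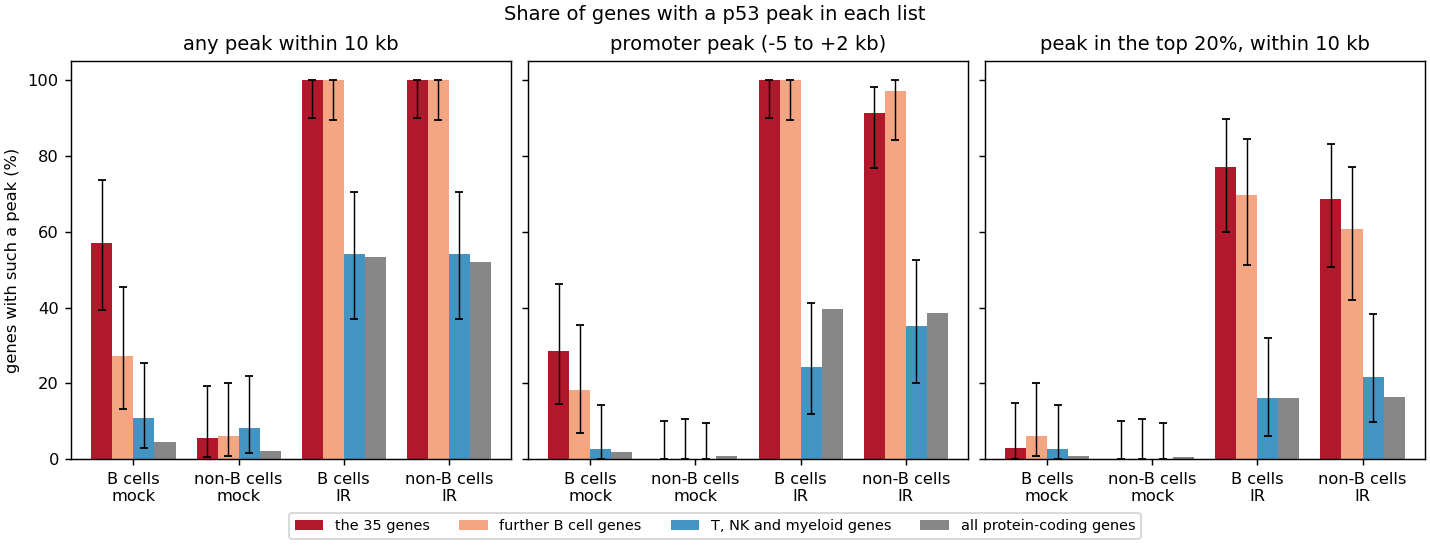
Percent of genes with any p53 peak within 10 kb, with a promoter peak and with a peak in the top 20% of its list, for the 35 genes, 33 further B cell genes, 37 T, NK and myeloid genes and all protein-coding genes, in the 4 lists of Trp53+/+ cells. Bars are shares and error bars exact 95% intervals for counting error. The 35 genes stand at 57.1% in B cells mock against 5.71% in non-B cells mock, and all 35 have a peak in both IR lists.

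The difference between the compartments after irradiation was one of number and rank. B cells had 250 distinct peaks in these windows and non-B cells 162, a ratio of 1.54, against 1.15 for the whole lists. The median gene had 6 peaks in B cells against 4 in non-B cells, where the median of all genes was 1 in both. The highest peak of a gene ranked higher in B cells for 32 of the 35 (51.7% of the 10976 genes with a peak in both), with a median of 91.9 in B cells against 86.1 in non-B cells. The exceptions were Ms4a1, Fcer2a and Btk. The median difference was 3.96 percentile points, against 0.228 over all genes. When the B cell list was reduced to the length of the non-B list, 25 of 35 ranked higher in B cells (41.4% of all genes), and the median difference was 2.95 points against -1.75. Differences of at least 20 points in favour of B cells were found for 4 genes, Siglecg, Ralgps2, Plcg2 and Cr2 (11.4%, interval 3.2 to 26.7), close to the 10.6% of all genes. None was higher in non-B cells by as much (8.58%).

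**Figure D3:**
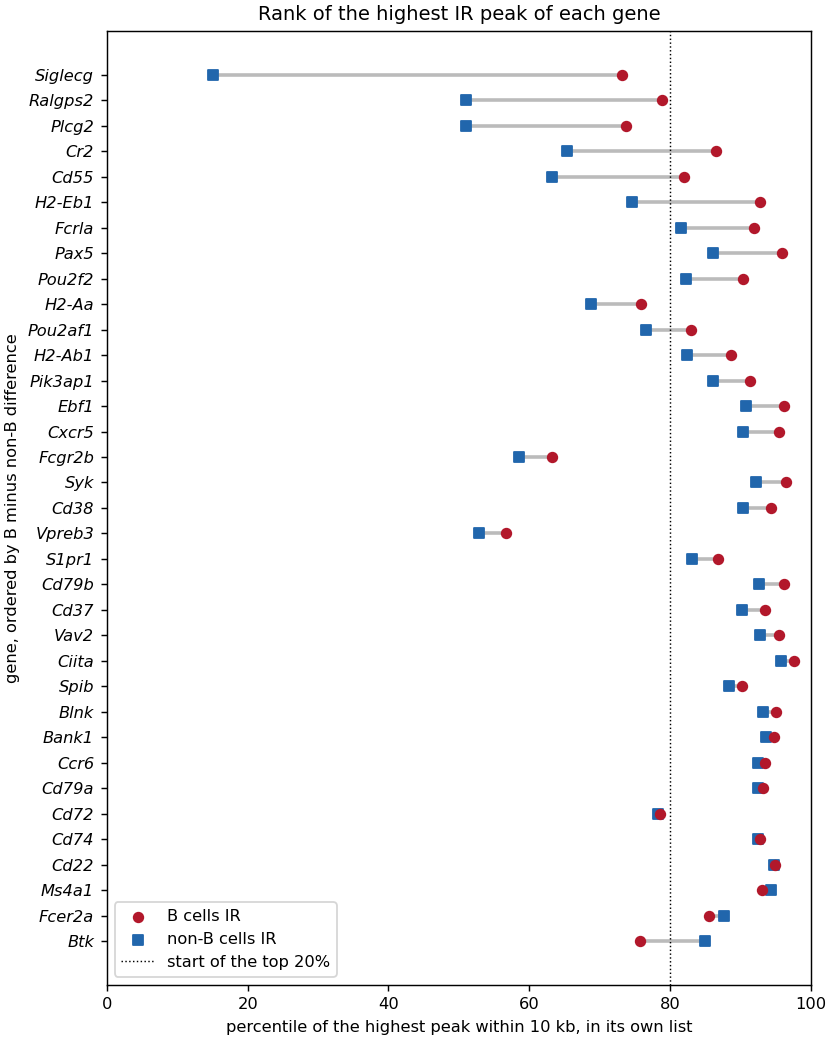
Percentile of the highest p53 peak within 10 kb of each of the 35 genes after IR in B cells (red circles) and non-B cells (blue squares), ordered by the difference, with the start of the top 20% dotted. The 32 upper genes rank higher in B cells; Siglecg has the widest gap (73.2 against 15.1) and Btk the widest in the other direction (75.7 against 84.9).

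Among the 11 receptor and coreceptor genes, 4 had a mock peak in B cells, namely Cd79a, Cd79b, Ms4a1 and Cd22. Cd79a and Cd79b encode the signalling chains of the receptor. The mock peak of Cd79a (chr7:25682362-25682416) lay over the start of the gene and was weak, with a value of 6.64 at percentile 13.3. At the same place the IR value was 77.7 in B cells (percentile 93.2) and 68.98 in non-B cells (92.4). The Cd79a window held 12 peaks in B cells IR against 6 in non-B cells IR, with little difference in the rank of the highest. Most of these peaks were nearest to the start of Rps19 or Arhgef1, and the highest one in non-B cells IR to that of Arhgef1. At places, neighbouring B cells IR peaks overlapped the same non-B cells IR peak. The 2 mock peaks of Cd79b lay downstream of the gene, with values of 7.82 and 9.05. After irradiation the site 6182 bases from its start (chr11:106169398-106169923) had 106.49 in B cells (percentile 96.2) and 70.48 in non-B cells (92.6).

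Ms4a1 encodes CD20, a surface protein of mature B cells. Its mock peak in B cells lay downstream, nearer to the start of Ms4a12, with a value of 7.17. Its highest IR peak lay 209 bases before its start and ranked slightly higher in non-B cells (81.97, percentile 94.3) than in B cells (76.3, percentile 93.0). The intronic Ms4a1 peak with the element shown above, at percentile 70.1 in B cells IR, was absent from the non-B list and was the highest of the 94 peaks near the 35 genes that only the B cells IR list held.

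Cd22 is an inhibitory receptor that binds sialic acids. It had 4 mock peaks in B cells, the largest number of the 35 genes, with values of 9.05, 12.97, 9.96 and 11.19. A pair lay at the start and a pair about 7 kb upstream (-7327 and -7614 bases). After irradiation the upstream site (chr7:31672060-31673255) was nearly level between the compartments, with percentile 94.9 in B cells against 94.8 in non-B cells. One of the pair at the start lay under a B cells IR peak at percentile 52.7, and no peak was called there in non-B cells IR.

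The 7 other genes of this group had no mock peak. Siglecg, a further inhibitory sialic acid receptor, had 1 peak in each IR list, 69 bases before its start in B cells, and showed the widest gap of the 35 genes, with a value of 32.38 (percentile 73.2) in B cells against 10.22 (15.1) in non-B cells. Cr2, the complement receptor CD21, had its highest peak at the start (chr1:197002677-197003195), at percentile 86.5 against 65.4. For Fcrla, an Fc receptor-like protein of the B lineage, the percentiles were 91.9 and 81.6. These 3 genes ranked clearly lower in non-B cells, and at each of them the same site was the highest in both lists. Cd72, an inhibitory coreceptor, had its highest B cell peak over the start-proximal element shown above, at percentile 78.6, and that site stood at 54.0 in non-B cells, where a peak 2059 bases upstream was the highest (78.3). Fcer2a, the low-affinity IgE receptor CD23, ranked at 85.5 in B cells against 87.7 in non-B cells. That peak lay 13971 bases from the Fcer2a start and nearest to the start of Trappc5. Fcgr2b, the inhibitory Fc receptor, and Vpreb3, a protein of early B cell receptor assembly, were outside the top 20% in both lists, with 63.2 and 58.6 for Fcgr2b and 56.7 and 52.8 for Vpreb3.

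Of the 8 signalling genes, Bank1, Blnk, Syk and Pik3ap1 had mock peaks in B cells. The adaptor Blnk had 2, one at its start with a value of 10.25 and an intronic one with 11.54 (chr19:41044828-41044982). Over the start, the IR peaks of Blnk had 91.77 in B cells (percentile 95.0) and 73.55 in non-B cells (93.2). At the intronic site the IR peaks stood further apart, at 92.2 and 76.8. The B cells IR peak there (chr19:41044394-41045316) covers the whole element shown above. The mock peak lies beside the element, and the non-B cells IR peak covers only part of it. The scaffold Bank1 had mock peaks of 13.44 at its start and 7.57 in an intron. At its start the IR peaks of Bank1 ranked alike, at 94.8 in B cells against 93.6 in non-B cells, while its intronic peak with a 2-mismatch element ranked at 81.9 and 30.9.

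Syk had mock peaks of 8.3 upstream and 8.76 in an intron. The intronic Syk site (chr13:52695437-52695982) carried the highest B cells IR peak of the signalling genes, with 112.36 in B cells (percentile 96.5) and 67.95 in non-B cells (92.2). The peak with the 1-mismatch element lay deeper in the gene, in the middle of the B cells IR list (value 19.47), and was not called in non-B cells IR. Pik3ap1, an adaptor that links the receptor to phosphoinositide 3-kinase, had 1 intronic mock peak of 7.72. After irradiation Pik3ap1 held 18 peaks in B cells against 11 in non-B cells, and its highest peak, over a coding exon, ranked at 91.4 and 86.1.

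The other signalling genes had no mock peak. Vav2, a guanine nucleotide exchange factor, had 16 IR peaks in B cells against 8 in non-B cells, with the highest at percentile 95.4 and 92.8. Plcg2 had 9 and 2, with the highest at 73.7 and 51.0, the lower number and rank both being in non-B cells. Ralgps2, an exchange factor for Ral GTPases, ranked at 78.9 and 51.0. Btk went the other way. Its highest peak (chrX:131120016-131120418) had 34.63 in B cells (percentile 75.7) and 45.27 in non-B cells (84.9), but it lay upstream of Btk and nearest to the start of Rpl36a.

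All 5 transcription factor genes except Pou2f2 had a mock peak in B cells. Pax5 was the only one of the 35 genes with a peak at the same place in both mock lists, in an intron (chr4:44683776-44684222 in B cells). Its value was 37.36 in B cells mock (percentile 95.4) and 16.22 in non-B cells mock (71.5). After irradiation this site had 75.34 in B cells (92.9) against 47.51 in non-B cells (86.1). A further intronic Pax5 site, with the 2-mismatch element shown above (chr4:44550578-44551277), was not called in mock cells. In B cells IR it was the highest Pax5 peak, with 103.23 (95.9), and in non-B cells IR it had 34.0 (76.4). The Pax5 peak with the 1-mismatch element ranked at 77.8 and 67.2.

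Ebf1 held the most IR peaks of the 35 genes, 23 in B cells against 15 in non-B cells, in the longest window (411 kb, against a median of 38.5 kb over the 35). Its 3 mock peaks in B cells were intronic, with values of 6.78, 10.87 and 8.85. The highest B cells IR peak of Ebf1 lay over its element (chr11:44751052-44751791), with 105.12 (percentile 96.1) in B cells against 39.96 (81.5) in non-B cells. In non-B cells another intronic site was the highest for Ebf1, with 61.35 (90.8), and that site had 97.6 (95.5) in B cells. Of the IR peaks called in B cells only, Ebf1 had 10.

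Pou2af1, a coactivator of the octamer factors, had a mock peak of 10.6 at its start, and its IR peaks there ranked at 82.9 and 76.6. Pou2f2, the octamer factor Oct-2, had its highest IR peaks in an intron at 90.3 and 82.3, with a 3-mismatch element. Spib, an Ets family factor, had a mock peak of 7.82 upstream, nearest to the start of Pold1. At that site the IR peaks of Spib ranked at 90.2 in B cells against 73.3 in non-B cells, and at an intronic site near its start at 88.8 and 88.4. All 5 transcription factor genes ranked higher in B cells IR, with a median difference of 6.29 points.

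All 5 antigen presentation genes had a mock peak in B cells and none in non-B cells. The window of Ciita held the highest peaks of the 35 genes, a pair of neighbouring sites within the gene and nearest to the start of Dexi. The first (chr16:10515859-10516675) had a mock value of 12.97 in B cells, and IR values of 138.22 (percentile 97.6) in B cells against 100.56 (95.7) in non-B cells. The second (chr16:10517327-10518068), with the 3-mismatch element shown above, had no mock peak. Its IR value was 138.38 (97.6) in B cells against 45.96 (85.3) in non-B cells, so the neighbouring sites, level in B cells, differed in non-B cells. The upstream Ciita peak with the 1-mismatch element was low in both, at 44.4 and 30.5.

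Cd74, the invariant chain of MHC class II, had 3 mock peaks, with values of 8.66, 10 and 10.24. Its highest IR peak was intronic and ranked at 92.7 in B cells against 92.5 in non-B cells, while the peak at its start ranked at 80.4 and 58.1. The MHC class II chain genes H2-Aa, H2-Ab1 and H2-Eb1 are neighbours, their windows overlap, and H2-Aa and H2-Eb1 shared a mock peak of 8.3. H2-Ab1 had a mock peak of 7.69 upstream, and its IR peaks at that site ranked at 88.6 and 82.4. H2-Eb1 had 2 further mock peaks of 9.08 and 5.08 before its start, and its highest IR peak, 842 bases after the start, ranked at 92.7 and 74.6. H2-Aa stayed outside the top 20%, at 75.9 and 68.7.

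Of the 6 surface and homing genes, Cd37, Cd38 and Cxcr5 had mock peaks in B cells. Cd37, a tetraspanin, had one of 8.0 just before its start, where the IR peaks ranked at 93.0 in B cells against 89.5 in non-B cells. Cd38, an ectoenzyme, had an intronic one of 9.89, where the IR peaks ranked at 94.3 and 86.1. Another intronic Cd38 site, the highest of the gene in non-B cells, ranked at 90.0 in B cells against 90.3 in non-B cells. Cxcr5, the chemokine receptor that guides B cells to follicles, had an intronic mock peak of 5.95 in B cells and another site upstream, of 9.08, in non-B cells. After irradiation both Cxcr5 sites were called in both compartments, the intronic one ranking higher in B cells and the upstream one in non-B cells. The intronic one ranked at 92.9 in B cells against 84.0 in non-B cells, and the upstream one at 47.4 and 74.4. The highest Cxcr5 peak was another one, at 95.4 and 90.3, nearest to the start of Bcl9l.

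Ccr6, a further chemokine receptor, S1pr1, which directs exit from lymphoid organs, and Cd55, which limits complement, had no mock peak. Their highest IR peaks ranked at 93.4 and 92.5 (Ccr6), 86.8 and 83.1 (S1pr1) and 82.0 and 63.2 (Cd55). Thus all 6 ranked higher in B cells, by a median of 3.83 points.

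Peak by peak, nearly all non-B cells IR peaks near the 35 genes were also called in B cells IR. The B cells IR peaks there were shared less often than in the whole list. Sites called in both compartments mostly stood higher in B cells. Of the 162 non-B cells IR peaks, 157 overlapped a B cells IR peak (96.9%, interval 92.9 to 99.0, whole list 85.3%). In the reverse direction 156 of the 250 were shared (62.4%, interval 56.1 to 68.4, whole list 73.6%). The 94 peaks called in B cells only were spread over 26 genes, led by Ebf1 with 10, Pik3ap1 with 9 and Vav2 with 8. They were weak, with a median percentile of 27.0 and none in the top 20%. The 5 called in non-B cells only reached percentile 34.5 at most.

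Each B cell peak was paired with the highest non-B cell peak that overlapped it, and the same was required in reverse. This gave 154 pairs near the 35 genes. B cells were higher in 134 of them (87.0%) with a median difference of 13.7 points, against 59.8% and 2.69 points over all 17841 pairs. The difference was seen in each range of rank. Among pairs with a mean percentile under 50, the median was 26.0 points in 53 pairs (all pairs 6.68). From 50 to 80 it was 16.1 points in 54 pairs (4.76), and from 80 upward, where little room is left, 3.51 points in 47 pairs (0.502). The widest gap in favour of B cells was an Ebf1 pair (percentile 84.2 against 15.8, a difference of 68.4 points). The B cells IR peak of this pair also overlapped a further, separately called non-B cells IR peak, at percentile 6.75. In the other direction the widest gap was a pair in the Cd79a window, nearest to the start of Arhgef1, at -38.1 points.

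**Figure D4:**
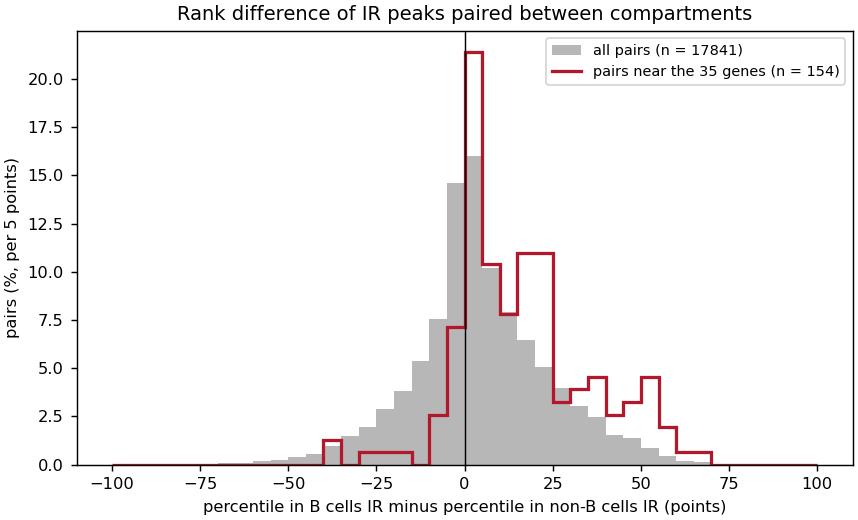
Percent of paired IR peaks by the difference in percentile between the compartments (B minus non-B), in steps of 5 points, for the 154 pairs near the 35 genes (red outline) and all 17841 pairs (grey). The pairs near the 35 genes lie mostly to the right of 0, with a median of 13.7 points against 2.69.

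Response elements were rarer near these genes than in the lists as a whole. An element with at most 3 mismatches lay within 300 bp of the midpoint of 17 of the 250 B cells IR peaks (6.8%, interval 4.01 to 10.7), against 15.3% of the whole list. In non-B cells IR it was 13 of 162 (8.02%, interval 4.34 to 13.3), against 15.4%. Among B cells mock peaks 1 of 32 had one, at Blnk (3.12%, against 22.3%). The 17 elements belonged to 12 genes, and 13 of them lay outside the promoter window of their own gene. The whole lists are not confined to genes: 78.6% of the B cells IR peaks lay within 10 kb of a protein-coding gene. The paper reports that distal sites without chromatin marks were richest in the p53 motif. No share was computed for peaks near other genes. Whether the lower share is particular to the genes described here was therefore not tested.

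The lower share was also seen among the highest peaks. In the top 20% of the B cells IR list, 8 of 65 peaks near the 35 genes had an element (12.3%, interval 5.47 to 22.8), against 33.0% of all peaks there. Outside promoters it was 12 of 133 (9.02%, interval 4.75 to 15.2) against 21.9%. In promoters of any protein-coding gene it was 5 of 117 (4.27%, interval 1.4 to 9.69) against 6.95%, a value within the interval. The share of peaks in promoters was itself similar, 46.8% near the 35 genes and 44.0% of the list. By place, 141 of the 250 peaks had their midpoint in an intron, 65 upstream and 23 downstream of the gene. For 87.2% of the 250, the nearest annotated start was that of one of the 35 genes.

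**Figure D5:**
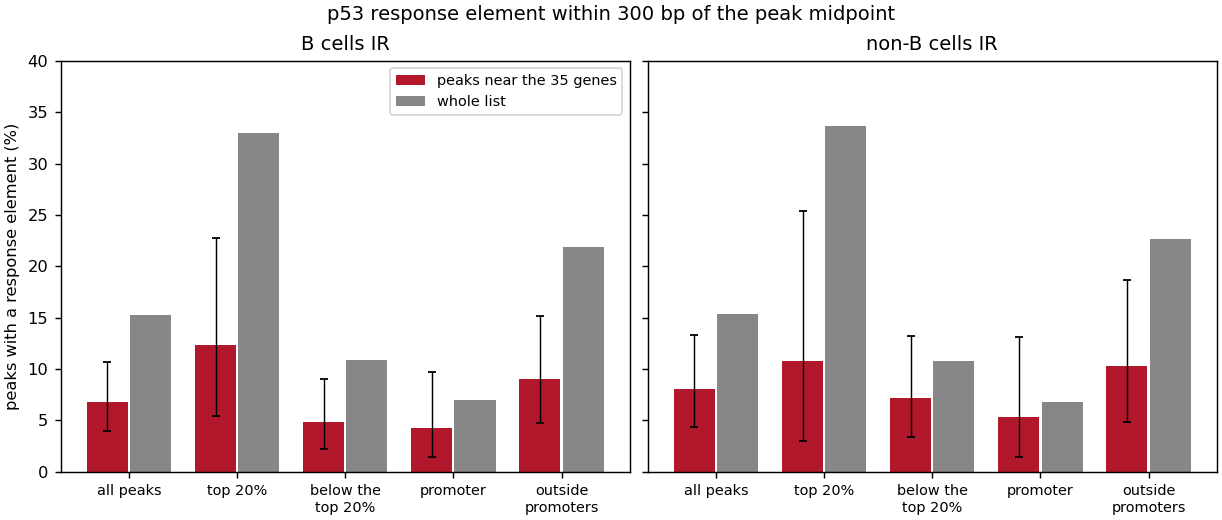
Percent of p53 peaks with a response element within 300 bp of the midpoint in the irradiated compartments, for peaks near the 35 genes (red, with exact 95% intervals for counting error) and for the whole list (grey), over all peaks, by rank and by place. In the top 20% of B cells IR the share is 12.3% near the 35 genes and 33.0% in the whole list.

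Set beside these, 33 further genes of the B lineage and its receptor pathway had a like pattern with smaller differences. A mock peak in B cells was called for 9 of them (27.3%, all genes 4.47%), among them Rasgrp3 and Lyn. One in non-B cells was called for Lyn and Ikzf1 (6.06%, all genes 2.28%). All 33 had peaks in both IR lists, with 237 peaks in B cells against 199 in non-B cells. That ratio of 1.19 was near the 1.15 of the whole lists. Of them 22 ranked higher in B cells (66.7%, interval 48.2 to 82.0, all genes 51.7%). The median difference was 2.94 points (interval -0.251 to 5.03, all genes 0.228). Both intervals held the value of all genes. The 37 genes of T, NK and myeloid cells stood apart from the 35. Mock peaks were called for 4 of them in B cells (10.8%, all genes 4.47%) and for 3 in non-B cells (8.11%, all genes 2.28%). The 3 genes in non-B cells had 2 distinct mock peaks between them. In either IR list taken alone, 20 had a peak, a share of 54.1% that is near that of all genes. Their IR peaks numbered 39 in B cells against 57 in non-B cells, a ratio of 0.684 against 1.15 for the whole lists. Of the 16 with a peak in both IR lists, 2 ranked higher in B cells, and the median difference was -6.82 points.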

How the data were processed

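Peaks of p53 from 5 libraries, 1 per group, were taken as deposited. Per the methods of the study and the labels, the authors aligned reads to mm9 with BWA 0.6.2 and called peaks in each library with MACS. The input sample was not analysed here. The deposited score of each peak was read as a −log10 p-value, but its unit is not stated. Scores under 8 occur in every list and do not match the limit stated for peak calling, so this reading remains uncertain. Read depth is not given in the sources used here. Peaks were assigned to GENCODE vM1 genes (mm9), 1 gene per symbol, with Python 3.11.15, numpy 2.4.6, scipy 1.17.1 and pandas 2.3.3, in scripts tested on simulated data, where 8 of 8 known quantities were recovered. Percentiles take the middle of tied values. Overlap meant at least 1 bp. Elements were unsplit, with the C and G core of each decamer required. The 35 genes and the comparison lists were chosen with earlier results of these data known. Genes were named with values when they had a mock peak, a IR peak in the top 20% of its list, a difference of at least 20 points or an element, and the rest by name and range. With 1 library per group, no test was run.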

Additional observations from a re-analysis of the deposited data

How the results depend on the processing

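Of 122 alternative values, 102 stayed within limits (counts within 1.5 times, shares and medians within their intervals), 20 moved further, and none changed direction. The count of genes with a mock peak in B cells (20) became 13 in the gene body alone and 9 at equal list lengths, and in non-B cells (2) it became 1 in the gene body and 6 within 50 kb. Genes with a mock peak in B cells only (18) became 8 at equal lengths, and in non-B cells only (0) 1 at equal lengths and 1 with values of at least 8. Genes with a peak in the top 20% of the B cells mock list (1) became 3 within 50 kb and 4 when ranked by peak width, and in non-B cells mock (0) 1 under each. In the gene body alone, 1 gene had a B cells IR peak and no non-B cells IR peak (0). The median rank difference of 3.96 points became 7.08 with ranks by width. The element share in B cells mock (3.12%) was 0.0% with at most 2 mismatches (whole list 18.6%), 18.8% with 4 (27.2%) and 0.0% when the element had to lie within the peak. After IR the share in B cells (6.8%) was 3.6% with 2 (whole list 10.1%) and 15.6% with 4 (22.9%), and that in non-B cells (8.02%) 4.32% (10.4%) and 15.4% (22.6%). With 1 library per group, no replicate could be left out. No paired analysis was possible because there were no replicates. No counts or depths come with the peaks, so that a gene without a peak is one without a call, and ranks in lists of unequal length are not levels of binding.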
